A study of Mus musculus with 9 samples.

Results

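The chromodomain helicase DNA-binding (CHD) remodelers are 9 genes, Chd1 to Chd9, that were found in the count table by matching their Ensembl identifiers to these symbols. All 9 were measured among 48526 genes, and all 9 passed the filter on low counts that left 18858 genes to be tested. The libraries were made from neural stem cells (NSCs) of the subependymal zone (SEZ) of wild-type C57BL/6 mice (C57BL/6J in the study's methods) between 2 and 4 months old, expanded in culture with EGF and FGF. Differentiation was induced by plating the cells on an adhesive substrate and withdrawing EGF, and cells were collected at time 0 h and after 1 h and 6 h. For cells fixed soon after induction, the study's methods describe plating in complete medium before the change of medium. They do not say whether this held for the sequenced cultures. Each group holds 3 replicates, which makes 9 libraries. The cells carried no genetic change, and FGF stayed in the medium at the 3 time points. The 0 h cultures were the common reference, so the comparisons of 1 h and 6 h with 0 h share those libraries.

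CHD proteins are ATP-driven motors that slide, evict or space nucleosomes. Each carries paired chromodomains, which read histone tails, in front of a SNF2-type ATPase, and the family falls into 3 subfamilies. CHD1 and CHD2 carry a DNA-binding domain and work with the elongating polymerase. CHD3, CHD4 and CHD5 carry PHD fingers and serve as alternative ATPases of the NuRD complex, which couples nucleosome sliding to histone deacetylation. CHD6, CHD7, CHD8 and CHD9 carry BRK domains. In neural progenitors the family is best known for CHD7, mutated in CHARGE syndrome, for CHD8 and CHD2, which are mutated in autism and in epilepsy, and for CHD5, a largely neuronal protein.

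The ATPase motor of every member holds the residues DEAH, which bind magnesium and ATP, and these letters occurred a single time in each coding sequence. The windows below give 54 coding bases around that motif, in the direction of the gene, to show how alike the members' messages are at their most conserved point, since reads had to be assigned to 1 member. Capitals mark the 4 codons of DEAH.
Chd1: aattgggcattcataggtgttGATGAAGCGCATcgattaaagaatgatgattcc
Chd2: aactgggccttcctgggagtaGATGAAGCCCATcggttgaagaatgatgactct
Chd3: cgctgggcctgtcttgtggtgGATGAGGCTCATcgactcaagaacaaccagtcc
Chd4: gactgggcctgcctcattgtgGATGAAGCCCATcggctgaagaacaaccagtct
Chd5: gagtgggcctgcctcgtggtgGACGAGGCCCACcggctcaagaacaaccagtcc
Chd6: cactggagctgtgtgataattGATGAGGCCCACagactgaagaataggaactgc
Chd7: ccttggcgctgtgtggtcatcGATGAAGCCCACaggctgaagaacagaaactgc
Chd8: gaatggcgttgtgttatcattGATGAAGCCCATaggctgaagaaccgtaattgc
Chd9: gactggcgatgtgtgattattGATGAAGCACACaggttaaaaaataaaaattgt

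On mm10 (GRCm38), with exons of GENCODE M21, the Chd1 window is in exon 14 (chr17:15738500-15738553, plus strand) and the Chd2 window in exon 16 (chr7:73490598-73490651, minus strand). The windows of the NuRD ATPases are in exon 16 of Chd3 (chr11:69356941-69356994, minus strand), exon 17 of Chd4 (chr6:125108740-125108793, plus strand) and exon 16 of Chd5 (chr4:152370586-152370639, plus strand). Those of the BRK subfamily are in exon 13 of Chd6 (chr2:161018059-161018112, minus strand), exon 13 of Chd7 (chr4:8828322-8828375, plus strand), exon 14 of Chd8 (chr14:52219630-52219683, minus strand) and exon 12 of Chd9 (chr8:90994550-90994603, plus strand). Within a subfamily 72.2% to 85.2% of the bases were the same over 10 pairs, with Chd4 and Chd5 the most alike, and between subfamilies 51.9% to 75.9% were the same over 26 pairs. The longest run of bases that any pair of members shared over the whole transcripts was 35 bases, between Chd3 and Chd4.

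Chd4, the main ATPase of NuRD, was by far the most abundant member, and Chd5 the least. Levels between genes are compared here as CPM, a gene's counts scaled to the TMM-adjusted size of its library, per kb of merged exon. At 0 h Chd4 stood at 78.1 ± 3.09 CPM per kb (SD, n = 3), and Chd1 followed at 18.9 ± 0.68. Chd7 at 11.6 ± 1.03 and Chd8 at 10.98 ± 0.91 were next, and their libraries overlapped. Chd6 at 7.07 ± 0.62 CPM per kb lay just above Chd2 at 6.02 ± 0.43, the lowest Chd6 library being at 6.45 and the highest Chd2 library at 6.43. Chd9 at 2.44 ± 0.32, Chd3 at 1.22 ± 0.61 and Chd5 at 0.453 ± 0.13 CPM per kb closed the order, and the libraries of these 3 genes did not overlap. By 6 h Chd1 had come down to 14.4 ± 0.36 CPM per kb and Chd7 had come up to 14.1 ± 1.06, so that their libraries overlapped. Chd2 at 7.56 ± 0.46 and Chd6 at 7.32 ± 0.79 CPM per kb overlapped at 6 h as well, with the means in the opposite order to that at 0 h. Chd9 at 2.45 ± 0.15 and Chd3 at 1.35 ± 0.89 CPM per kb also overlapped at 6 h, and the lowest Chd3 library was at 0.688. Part of the order depends on the untranslated exons: per kb of coding sequence Chd8 stood above Chd7 at 0 h, at 23.4 against 17.9 CPM. The merged exon of Chd2, 14.3 kb, includes 2628 bases that it shares with another gene on the same strand. Reads there may not have been counted for Chd2, which would lower its value per kb. Its place below Chd6 at 0 h, and the change of order by 6 h, are therefore uncertain.

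**Figure D1:**
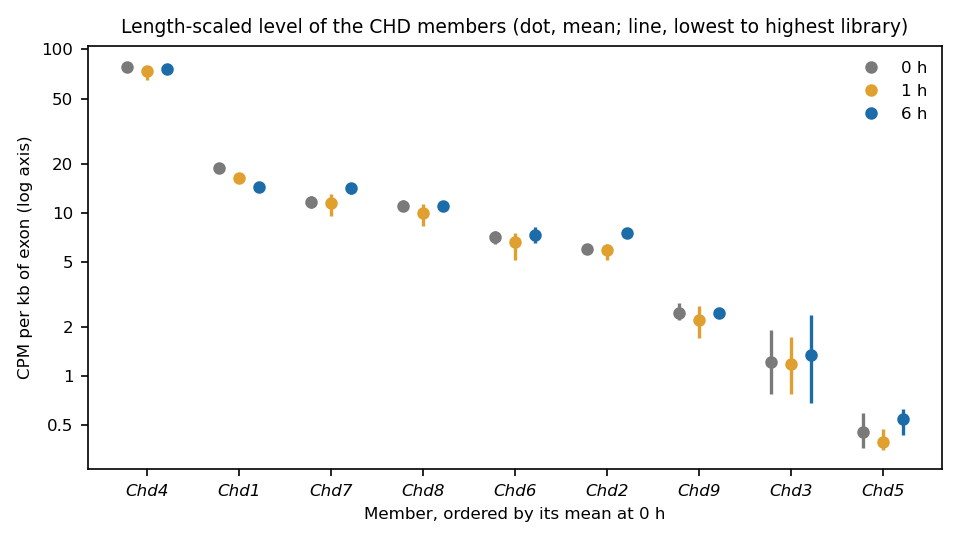
Level of each CHD member in CPM per kb of merged exon on a log axis, with 3 libraries for each of the 3 times. Dots are means and lines run from the lowest to the highest library. Chd4 is above 64 in all 9 libraries, Chd1 and Chd7 meet at 6 h, and Chd5 stays below 0.63.

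At 6 h against 0 h, Chd1 fell and Chd2 and Chd7 rose. In the edgeR quasi-likelihood fit with time and replicate number as terms, 2 members passed an adjusted p of 0.05 in the upward direction and 1 in the downward direction. Over all 18858 tested genes 17.4% were higher and 17.5% lower, 34.9% in all, so the 3 calls among 9 members are near the share called in general. Without the replicate number in the fit, 2.42% of genes and 1 of the 9 members, Chd1, passed. The members' median log2 fold change was 0.05, and their median absolute log2 fold change was 0.09, against 0.20 over all tested genes. The tested genes were not matched to the members for count level, so these medians do not show that the members were more stable.

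Chd1 reads promoter-associated methylation of histone H3 and keeps chromatin open behind the polymerase in stem cells. Its level was 158, 166 and 170.0 CPM in the 0 h replicates 1, 2 and 3, then 143, 145 and 136 CPM at 1 h and 127, 122 and 128 CPM at 6 h. The 3 time points did not overlap, and every replicate stepped down at both intervals. The 6 h level was 0.763 times that of 0 h (log2 fold change -0.39, SE 0.05, edgeR Benjamini-Hochberg adjusted p = 7.54e-05), lower in 3 of 3 pairs. This fall was also called without the replicate block (adjusted p = 0.0238) and whichever of the 9 libraries was dropped, where log2 fold changes ran from -0.43 to -0.35. Chd1 (ENSMUSG00000023852) is a protein-coding gene on the plus strand at chr17:15704967-15772610.

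Chd2, the other member of the Chd1 subfamily, has been linked to the deposition of the histone variant H3.3 and to neuronal development. Its 0 h replicates stood at 86.6, 92.0 and 79.8 CPM, its 1 h replicates at 87.5, 91.6 and 73.6 CPM, and its 6 h replicates at 114, 110 and 101 CPM. All 6 h libraries lay above all libraries of 0 h and 1 h. The rise over 0 h was 1.26-fold (log2 fold change 0.33, SE 0.05, edgeR Benjamini-Hochberg adjusted p = 0.00032) and was seen in 3 of 3 pairs. Without the replicate block the value was 0.33 and the adjusted p 0.13, so the call for Chd2 depends on the pairing. Chd2 (ENSMUSG00000078671, chr7:73426638-73541830, minus strand) shares 2628 bases of exon with the noncoding gene 1810026B05Rik on the same strand, and reads there cannot be told apart with certainty. That gene stood at 11.7 CPM at 0 h and 13.3 CPM at 6 h (log2 fold change 0.18, SE 0.08, adjusted p = 0.101). Chd1 and Chd2, the pair that makes up their subfamily, therefore changed in opposite directions over the 6 h.

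Chd7 binds enhancers and supports neurogenesis from adult progenitors as well as oligodendrocyte differentiation. It was at 158, 175 and 147 CPM in the 0 h replicates, 161, 180.1 and 132 CPM at 1 h, and 179, 208 and 197 CPM at 6 h. The 6 h libraries were above those of 0 h without overlap, whereas those of 1 h spread to both sides of the 0 h values. The fitted rise was 1.22-fold at 6 h against 0 h (log2 fold change 0.29, SE 0.07, edgeR Benjamini-Hochberg adjusted p = 0.00571), in 3 of 3 pairs. Leaving out any library kept the call, with log2 fold changes from 0.18 (without 6 h replicate 3) to 0.35, but the fit without the replicate block gave an adjusted p of 0.28. Chd7 (ENSMUSG00000041235) lies on the plus strand at chr4:8690406-8867659.

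**Figure D2:**
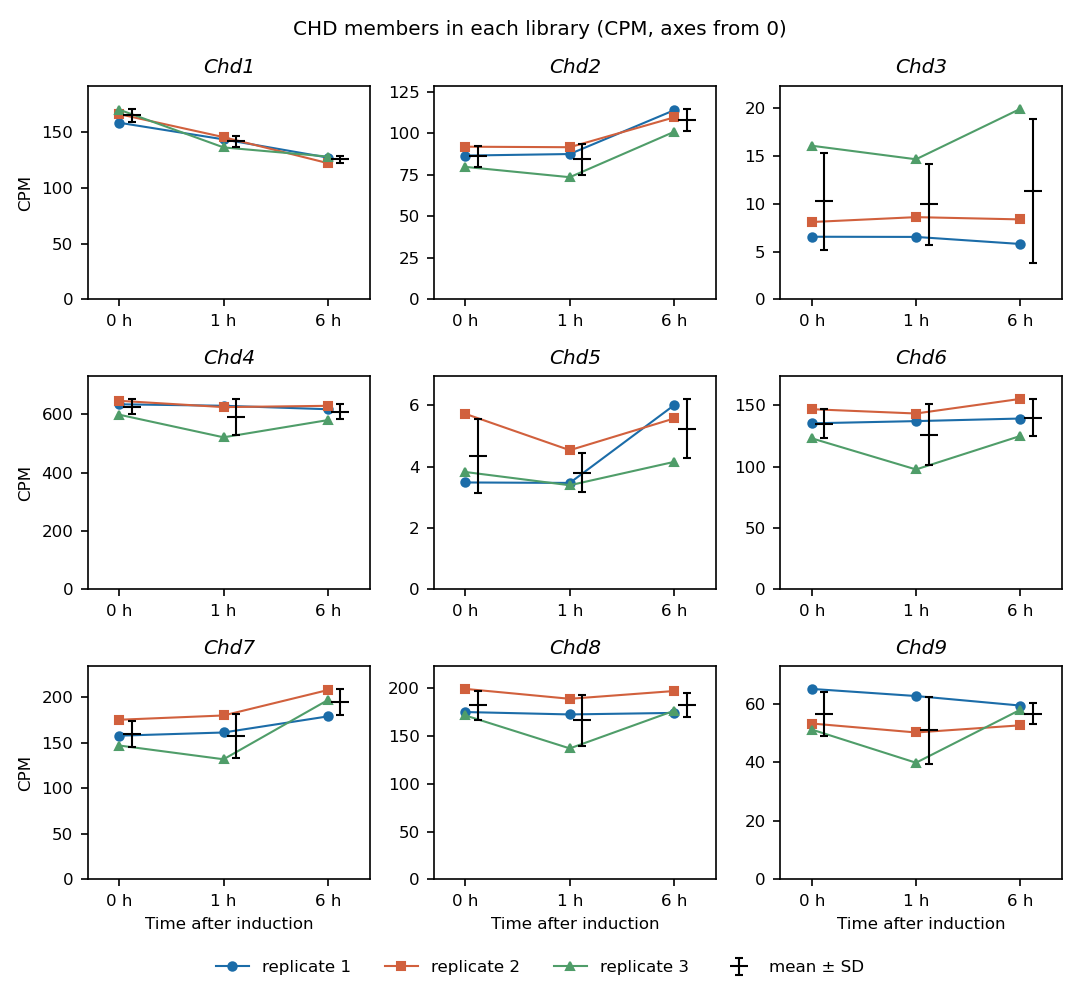
CPM of each CHD member (axes from 0) by time after induction. Coloured lines join libraries with the same replicate number and black bars are the mean ± SD of 3 libraries. Chd1 steps down from 165 to 126 CPM on average, Chd2 and Chd7 are higher at 6 h in every replicate, and replicate 3 is lower at 1 h than at 0 h for all 9 members.

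The other members of the BRK subfamily were near their starting level at 6 h. Chd8, a repressor of beta-catenin targets and a leading autism gene, was at 175, 199 and 171 CPM at 0 h and at 174, 196 and 176 CPM at 6 h. The difference was 0.01 on the log2 scale with a 95% interval from -0.13 to 0.14 (adjusted p = 0.95). The fitted change of Chd7 lies outside this interval, which rests on the replicate block. Without the block the SE for Chd8 was 0.124 instead of 0.064. A difference between Chd7 and Chd8 was not tested. Chd6, which has been tied to the oxidative stress response, was at 135, 147 and 123 CPM at 0 h and 139, 155 and 125 CPM at 6 h (log2 fold change 0.05, interval -0.09 to 0.19, adjusted p = 0.61). Chd9, the least studied of these genes, was at 65.05, 53.2 and 51.2 CPM at 0 h and 59.4, 52.6 and 57.9 CPM at 6 h (log2 fold change 0.02, interval -0.17 to 0.20). The 0 h and 6 h libraries of these 3 genes overlapped throughout. They map to chr14:52198151-52257780 (Chd8), chr2:160946978-161109075 (Chd6) and chr8:90828352-91054516 (Chd9), and Chd8 shares 953 bases of exon with the antisense gene Gm26590, which held 88 counts over the 9 libraries.

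Among the NuRD ATPases no member passed the test at 6 h against 0 h. Chd4 was at 634, 646 and 599 CPM at 0 h and at 617, 629 and 580.2 CPM at 6 h, a step of a few percent in each replicate (log2 fold change -0.04, interval -0.15 to 0.07, adjusted p = 0.58). Chd3, which takes the place of Chd4 in NuRD of maturing neurons, was at 6.57, 8.11 and 16.1 CPM at 0 h and 5.81, 8.38 and 19.96 CPM at 6 h. Replicate 3 held the highest Chd3 level at each of the 3 time points, and the change was higher in 2 of 3 pairs (log2 fold change 0.09, interval -0.14 to 0.31, adjusted p = 0.56). In bulk RNA, fewer cells that express a gene and less of its RNA per cell cannot be told apart. Chd4 lies at chr6:125095981-125130591 on the plus strand and Chd3 at chr11:69343273-69369406 on the minus strand.

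Chd5 was detected in every library, at 222 to 506 counts, although it was the rarest member. Its 0 h replicates stood at 3.48, 5.72 and 3.82 CPM, those of 1 h at 3.47, 4.53 and 3.39 CPM, and those of 6 h at 6.00, 5.57 and 4.15 CPM. Replicate 1 rose most at 6 h, replicate 3 a little, and replicate 2 was about level with its 0 h value, so the 2 groups overlapped. The 6 h change against 0 h did not pass the test (log2 fold change 0.28, SE 0.13, interval -0.01 to 0.57, adjusted p = 0.127). With a library dropped that value ran from 0.08 (without 6 h replicate 1) to 0.42 (without 6 h replicate 2), and was 0.11 without 0 h replicate 1, with no call, whereas with no filter on low counts it was 0.29 and passed (adjusted p = 0.0341). Against 1 h it did, at 0.46 (SE 0.14, edgeR Benjamini-Hochberg adjusted p = 0.0176, higher in 3 of 3 pairs), but the value without 6 h replicate 1 was 0.26 (adjusted p = 0.117), without 1 h replicate 1 it was 0.41 (0.0678) and without 1 h replicate 2 it was 0.47 (0.0519). The fit without the replicate block gave 0.46 (adjusted p = 0.37), and the one with GC and length trends removed 0.35 (adjusted p = 0.0606).

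Gene counts add up all transcripts of Chd5 and do not separate spliced from unspliced RNA. This matters because the study followed Chd5 splicing by intron retention in its RNA-seq, by in situ hybridisation and by PCR. The study's primer pairs show where the PCR looked in relation to the counted gene.
Chd5-F: gcaaccatccgtacctcttc
Chd5-R: gtaggagccattgggcagta
Chd5(total)-F: gctgtcgcctgctagagagt
Chd5(total)-R: ggcatgaggacccagttcta

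The first pair sits in the coding part of neighbouring exons, the forward primer in exon 19 (chr4:152372191-152372210) and the reverse primer, on the other strand, in exon 20 (chr4:152373456-152373475). The pair for total RNA sits in the 3′ untranslated part of the last exon, the forward primer at chr4:152389087-152389106 and the reverse primer at chr4:152389154-152389173. The counts here cover every exon of Chd5 (ENSMUSG00000005045, chr4:152338651-152390194, plus strand).

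Chd3, Chd4 and Chd5 encode alternative ATPases of NuRD, and the shares of their RNA in the summed level were compared. These RNA shares do not give the shares of the 3 proteins in NuRD. The study found Chd5 transcripts unspliced and kept in the nucleus in NSCs, and gene counts do not separate such RNA. Per kb of exon, Chd4 made up 97.9% ± 0.81 (SD, n = 3) of the 3 genes at 0 h, 97.9% ± 0.88 at 1 h and 97.5% ± 1.11 at 6 h. Chd5 made up 0.453%, 0.726% and 0.518% in the 0 h replicates, 0.455%, 0.596% and 0.528% at 1 h, and 0.799%, 0.726% and 0.577% at 6 h. The 6 h mean was 0.135 percentage points above that of 0 h, with 2 of 3 pairs higher (exact permutation test, two-sided, p = 0.5, where 3 pairs allow no p below 0.25). At 1 h the difference of the means was -0.0398 percentage points (exact permutation test, two-sided, p = 1.0). The remainder was Chd3, whose share lay between 0.879% and 3.15% and was highest in replicate 3 at each time point.

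**Figure D3:**
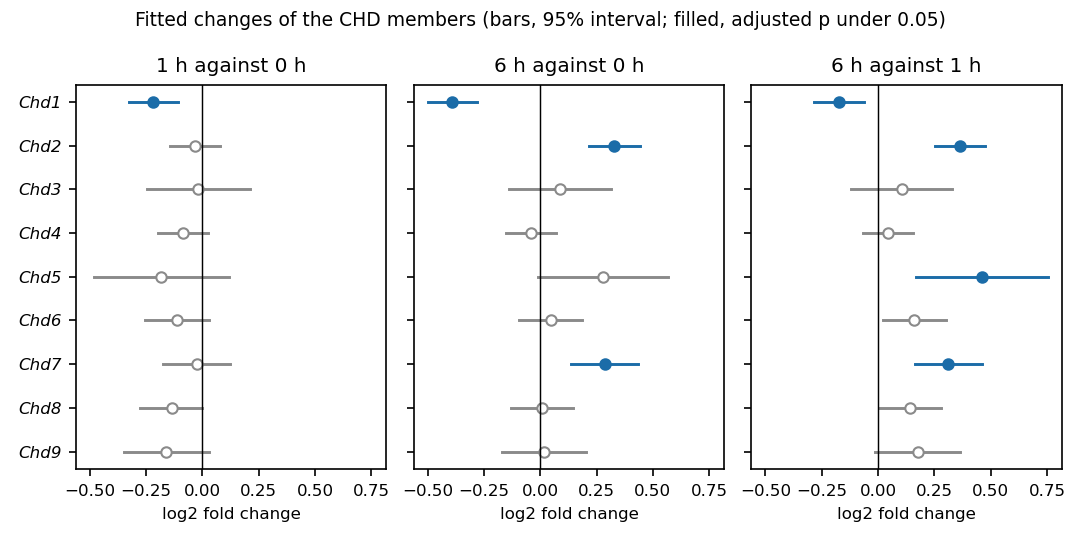
Log2 fold change of each CHD member with its 95% interval in the 3 comparisons, from the edgeR fit with the replicate block (3 libraries per time point). Filled points passed an adjusted p of 0.05. Chd1 lies at -0.22, -0.39 and -0.17, while Chd2 and Chd7 lie on the right at 6 h against both earlier times.

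At 1 h against 0 h, Chd1 was the only member that passed the test. The call was 1 of 9 members lower and 0 higher, beside 2.14% of tested genes lower, 1.36% higher and 3.51% in either direction. Without the replicate block 0.0424% of genes and 0 members passed, although Chd1 alone reached an unadjusted p under 0.05 there, at 0.00687, and DESeq2 without the block called 0 as well. Chd1 was 0.86 times its 0 h level (log2 fold change -0.22, SE 0.05, edgeR Benjamini-Hochberg adjusted p = 0.0327), lower in 3 of 3 pairs. When each library was dropped in turn, the call was kept only without 6 h replicate 2 or 3, and the 9 values ran from -0.25 to -0.17, the latter without 1 h replicate 3 (adjusted p = 0.0559). After GC and length trends had been removed it was -0.15 (adjusted p = 0.0556).

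The 1 h values of the whole family leaned down, and replicate 3 held most of that. All 9 log2 fold changes were below 0, with a median of -0.11 against 0.00 over all tested genes. In replicate 3 each of the 9 members was lower at 1 h than at 0 h, with a median log2 difference of -0.20, and in that library the 2641 tested genes with at least 8 kb of exon had a median of -0.17. The corresponding medians of the members were -0.01 in replicate 1 and -0.05 in replicate 2, where the long genes stood at 0.00 and -0.01. All CHD genes have over 8 kb of merged exon, from 8.02 kb in Chd4 to 23.2 kb in Chd9, and the part of transcript length in the 1 h values was not tested beyond the fit with length removed. Without 1 h replicate 3 the values of Chd2, Chd3 and Chd7 turned above 0, at 0.01, 0.12 and 0.07. Chd8 at 1 h was at 172, 188 and 137 CPM and Chd6 at 137, 143 and 97.7 CPM, and replicate 3 was the library that stood low in both.

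The comparison of 6 h with 1 h also tests whether the changes at the 2 times differ, since both were measured against the same 0 h libraries. Chd2 (log2 fold change 0.36, SE 0.05, edgeR Benjamini-Hochberg adjusted p = 0.000154), Chd5 (above) and Chd7 (0.31, SE 0.07, adjusted p = 0.00346) were higher and Chd1 (-0.17, SE 0.05, adjusted p = 0.0177) was lower at 6 h. These are 3 members higher and 1 lower of 9, beside 18.0% of tested genes higher, 17.5% lower and 35.6% in either direction. The fit without the replicate block called 2.14% of genes and 0 members (also 0 in DESeq2), with an unadjusted p below 0.05 for Chd1, Chd2 and Chd7. Chd6 (0.16, adjusted p = 0.0694), Chd8 (0.14, adjusted p = 0.0975) and Chd9 (0.18, adjusted p = 0.136) did not pass. Their rises were largest in replicate 3, at 0.35, 0.36 and 0.54 on the log2 scale, and the values without 1 h replicate 3 were 0.06, 0.04 and 0.04. Without 1 h replicate 1 the count higher became 5, with Chd6, Chd8 and Chd9 in and Chd5 out. For fits with a library dropped, here and below, the share of all tested genes called was not computed. For Chd1, the call was lost in 3 of the 9 fits with a library dropped, with values of -0.16 without 1 h replicate 1 (adjusted p = 0.083), -0.14 without 1 h replicate 2 (0.122) and -0.13 without 6 h replicate 2 (0.121).

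Among subunits that work with CHD4, 6 were called lower, 1 higher and the others neither way at 6 h against 0 h. The list held 16 genes of NuRD and of ChAHP, a complex of CHD4 with ADNP and heterochromatin protein 1, and all 16 were tested. At 6 h against 0 h, 6 of 16 fell and 1 rose (43.8% called, beside 34.9% of all tested genes, 17.5% lower and 17.4% higher), the median log2 fold change was -0.15 against 0.00 over all tested genes, and 0 passed without the replicate block in edgeR or DESeq2 (6 had an unadjusted p under 0.05 in edgeR). The 7 calls became 11 without 1 h replicate 3. Not called at 6 h against 0 h were Mta1, Mta2, Mbd2, Mbd3, Rbbp4, Gatad2b, Cdk2ap1, Cbx5 and Adnp. Adnp, of ChAHP, stood at only 2.15 CPM at 0 h and 1.665 CPM at 6 h (log2 fold change -0.345, adjusted p = 0.165). The deacetylase Hdac1 fell from 176 ± 16.6 to 147 ± 11.5 CPM (SD, n = 3; log2 fold change -0.27, adjusted p = 0.000682), and the histone chaperone Rbbp7 from 285 ± 22.5 to 234 ± 25.4 CPM (-0.29, adjusted p = 0.000653). The heterochromatin protein Cbx1 fell by 0.22 on the log2 scale (adjusted p = 0.00485). Mta3, a NuRD scaffold subunit, was the exception and rose from 11.95 ± 1.90 to 14.8 ± 1.75 CPM (0.31, adjusted p = 0.00404). Against 1 h, 8 fell and 1 rose (56.2% called, beside 35.6% of all tested genes), with Mbd3, the subunit that holds NuRD together, at -0.26 (adjusted p = 0.00594), and at 1 h against 0 h 0 of 16 passed in edgeR and in DESeq2, with and without the block (2 and 0 had an unadjusted p under 0.05 in edgeR). Chd4 itself did not pass in any of the 3 comparisons.

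Genes listed as partners of CHD1, CHD7 and CHD8 moved in both directions. The list also holds Sox4, which is described below as activated by CHD7 and so is not only a complex partner. Sox4 was the 1 gene called higher at 1 h, and the 1 called higher at 6 h against 0 h in edgeR without the block. Of 20 genes, 4 rose and 6 fell at 6 h against 0 h (10 of 20 called, beside 34.9% of all tested genes), with a median of -0.08, and without the replicate block 1 rose and 1 fell. These 10 calls became 6 without replicate 1 of 0 h or of 6 h and 5 without 0 h replicate 2. Cdc73 of the PAF1 elongation complex fell by 0.32 on the log2 scale (adjusted p = 0.000516), while Leo1 of the same complex, named after its values were seen, rose by 0.20 (adjusted p = 0.00825, 3 of 3 pairs). Supt16, a subunit of the histone chaperone FACT, was at -0.30 (221 ± 3.36 to 179 ± 6.85 CPM, adjusted p = 0.000434, and 0.0497 without the block). Ssrp1, the other FACT subunit, was lower at 6 h than at 1 h (-0.28, adjusted p = 0.00111). Among the lineage factors of the list, Sox2 (0.06, adjusted p = 0.489) and Sox11 (0.01, adjusted p = 0.876), also named after their values were seen, did not pass. Sox4, a progenitor factor activated by CHD7, rose from 86.7 ± 2.405 to 133 ± 7.36 CPM at 6 h (0.62, adjusted p = 1.78e-05, and 0.0191 without the block) and was already at 129 ± 14.2 CPM at 1 h (0.57, adjusted p = 0.000408, and 0.169 without the block). Olig2, which drives the oligodendrocyte lineage, was at 579 ± 39.2 CPM in the 1 h libraries and rose to 773 ± 71.2 CPM by 6 h (0.41, adjusted p = 5.61e-05, and 0.107 without the block). Against its 0 h level of 633 ± 79.99 CPM the rise was 0.29 (adjusted p = 0.000742, and 0.233 without the block). Sox10, another factor of that lineage, also passed but stayed below 0.33 CPM in every library, so its change of 1.199 rests on few reads. At 1 h against 0 h 1 of 20 rose and 1 fell (beside 3.51% of all tested genes called). The latter was Rbbp5 of the MLL methyltransferase core (-0.27, adjusted p = 0.0135, and 0.9998 without the block). At 6 h against 0 h Rbbp5 did not pass (-0.096, adjusted p = 0.187). At 6 h against 1 h 4 of 20 rose and 6 fell (beside 35.6% of all tested genes called). These became 5 or 6 calls without replicate 1 of either time, 1 h replicate 2 or 6 h replicate 3.

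Other ATPases of the SNF2 family gave a reference for remodelers as a class. Of 21 genes, 2 rose and 7 fell at 6 h against 0 h (median -0.13), 4 rose and 5 fell against 1 h (median 0.00), and 0 passed at 1 h against 0 h (median -0.13). The calls were 42.9% of the list at 6 h against either time, beside 34.9% and 35.6% of all tested genes, and 3.51% of all tested genes were called at 1 h. Without the block 0 passed in each comparison in edgeR (1, 3 and 1 had an unadjusted p under 0.05 at 1 h, 6 h and 6 h against 1 h) and 0, 1 and 1 in DESeq2. At 1 h, 6 of the 21 had an unadjusted p under 0.05 with the block, and DESeq2 called 0. The 9 calls at 6 h against 0 h became 4 without 0 h replicate 2 and 5 without 6 h replicate 2. The largest fall was in Hells, which supports DNA methylation at replicating heterochromatin, from 129 ± 24.9 to 81.7 ± 28.5 CPM (log2 fold change -0.70, adjusted p = 7.68e-05). Ercc6l, a mitotic helicase, at -0.47 and Rad54l, a recombination motor, at -0.24 also fell. Smarca1, the ISWI ATPase of differentiating neurons, rose by 0.39 (7.37 ± 1.64 to 9.66 ± 2.23 CPM, adjusted p = 0.00126). The CHD members thus gave 1 fall to 2 rises, and the difference between the lists was not tested.

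**Figure D4:**
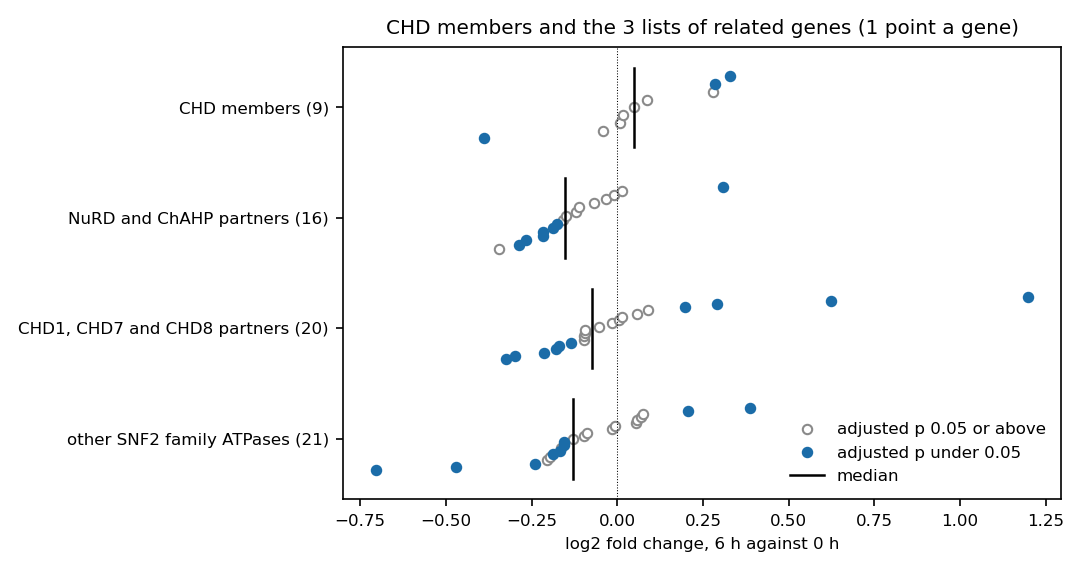
Log2 fold change at 6 h against 0 h (1 point a gene, edgeR fit with the replicate block) of the 9 CHD members, 16 NuRD and ChAHP partners, 20 partners of CHD1, CHD7 and CHD8, and 21 other SNF2 ATPases. Filled points passed an adjusted p of 0.05 and bars are medians, at 0.05, -0.15, -0.08 and -0.13 from top to bottom.

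The libraries held 65871454 to 105592597 counts, with 2.86% to 3.58% from mitochondrial genes. Summed NSC and progenitor markers stood between 6671 and 9577 CPM in all libraries, with 3 of 7 genes higher and 2 lower at 6 h against 0 h, and all 5 microglial markers stayed below 1 CPM. Summed neuronal markers lay between 19.7 and 38.7 CPM in the 0 h libraries and between 58.5 and 122 CPM in those of 6 h, with 4 of 6 genes called higher, and Stmn2 was below 1 CPM throughout. Most of this sum was Syt1, with means of 22.8 CPM at 0 h and 70.3 CPM at 6 h. The means of Dcx (1.08 to 0.81 CPM) and Stmn2 (0.33 to 0.19 CPM) were lower at 6 h. Oligodendrocyte lineage markers summed to between 68.5 and 96.0 CPM before induction and to between 170.1 and 216 CPM after 6 h, also with 4 of 6 called, and Sox10 and Mog stayed below 1 CPM. Most of this sum was Cspg4, with means of 65.9 CPM at 0 h and 174 CPM at 6 h, and Mog was about level (0.31 and 0.30 CPM). Of the other lists, 1 of 5 astrocyte, 1 of 5 microglial, 1 of 4 endothelial and 1 of 3 ependymal markers were lower and 0 higher. The part of these shifts in the changes of Chd1, Chd2 and Chd7 was not tested.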

How the data were processed

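The authors deposited raw counts of reads per Ensembl gene for 9 libraries of stranded mRNA, not normalised and not pooled. Per the labels and the methods of the study, reads were aligned to mm10 (GRCm38) and counted with STAR 2.5.3a, after quality control with FastQC, and differential expression used DESeq2 1.22.1. The strand setting of the counting is not given in the sources used here. Gene positions came from GENCODE M21, which held 48144 of the 48526 identifiers.

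The counts were fitted with edgeR 4.0.16 under R 4.3.3 (filterByExpr with a minimum count of 10 and a minimum total of 15, TMM, glmQLFit and glmQLFTest) over all 9 libraries, with time and replicate number as terms, and Benjamini-Hochberg adjustment over 18858 genes. Replicate numbers come from the labels, which do not say what libraries with the same number share, or whether replicates came from separate animals, so p-values measure the spread between these samples only. After subtraction of time point means, libraries with the same number correlated at 0.733 to 0.800 (9 pairs), so the number was kept as a block. Others correlated at -0.462 to -0.314 (18 pairs). Deviations from a mean cancel out within each time point, so these negative values follow from the positive ones and add no support. The block lowered the biological coefficient of variation from 0.277 to 0.0627. DESeq2 1.42.0 served as an alternative. Python 3.11.15 (pandas 2.3.3, matplotlib 3.10.9) was used for tables and plots. The fits were also run on simulated counts. These had a replicate effect built in and changes larger than those fitted for the members. That run therefore does not bear on the choice of the block or on the members' calls.

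The members, lists and the rule for names were chosen with earlier results of these data known. That rule takes all members, up to 4 called genes per list and comparison with the largest change, and the 3 genes most like the member that rose most and the one that fell most.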

Additional observations from a re-analysis of the deposited data

Results flagged for a closer look

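For 4 of the 9 members the change at 6 h differed from the change at 1 h by a direct test. The test was the edgeR comparison of 6 h with 1 h with the replicate block. It also called 35.6% of all tested genes, so the result is not particular to the members. Whether the members' share differs from the general share was not tested. The difference on the log2 scale was -0.17 for Chd1, 0.36 for Chd2, 0.46 for Chd5 and 0.31 for Chd7, and none of the 4 passed without the block. Of 3 libraries per time point, 3 of 3 pairs showed the direction in each of these genes. Under the 19 alternatives described below, the call was lost in 8 for Chd1 and in 7 for Chd5. It was lost in 2 for Chd2 and in 2 for Chd7.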

How the results depend on the processing

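Each comparison was repeated under 19 alternatives. The share of all tested genes called was computed only for the main fit and for edgeR with no replicate block. Counts of calls under the other settings therefore have no general share beside them. Whether they follow the general rate of calls was not tested. The fall of Chd1 at 6 h against 0 h passed in all 19, and the rises of Chd2 and Chd7 in 17, all but edgeR and DESeq2 with no replicate block. Without the block the count of members higher was 0 at 6 h against 0 h and against 1 h and the count lower was 0 at 1 h against 0 h and at 6 h against 1 h, and DESeq2 without the block gave the same 4 values of 0. Called partners of CHD1, CHD7 and CHD8 numbered 0, 2 and 0 without the block (1 h, 6 h, and 6 h against 1 h) and 1, 2 and 3 in DESeq2 without it, called NuRD and ChAHP partners at 6 h against 0 h and against 1 h numbered 0 and 0, and 0 and 1 in DESeq2, and other SNF2 ATPases 0 and 0, and 1 and 1 in DESeq2. The cause was not tested beyond the pairing itself.

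At 1 h the count of 1 member lower became 0 at an adjusted p under 0.01, with only the 6 libraries compared and with GC and length trends removed, and ranged from 0 to 1 when a library was left out. An adjusted p under 0.01 left 1 partner of CHD1, CHD7 and CHD8 at 1 h and 4 at 6 h against 1 h, 5 other SNF2 ATPases at 6 h against 0 h, and 0 members lower at 6 h against 1 h. For 6 h against 1 h, members higher numbered 5 and lower 0 with library totals without a scaling factor, and 6 higher without the filter on low counts, where Chd6, Chd8 and Chd9 passed. With GC and length trends removed, 4 members were higher against 1 h, with Chd6 (0.132, adjusted p = 0.0219) and Chd9 (0.161, adjusted p = 0.0276) in and Chd5 out. With no filter, Chd5 also passed at 6 h against 0 h, which made 3 members higher. The 6 libraries compared gave 11 NuRD and ChAHP partners at 6 h against 0 h, and 6 partners of CHD1, CHD7 and CHD8 and 0 members lower at 6 h against 1 h.

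Leaving out each library gave 2 to 5 members higher and 0 to 1 lower at 6 h against 1 h, the 5 without 1 h replicate 1. Called partners of CHD1, CHD7 and CHD8 ranged from 1 to 2 at 1 h, from 5 to 11 at 6 h against 0 h and from 5 to 9 at 6 h against 1 h. At 6 h against 0 h, 5 to 11 NuRD and ChAHP partners and 4 to 13 other SNF2 ATPases passed. The Chd5 share moved by between -0.0643 and 0.00549 percentage points at 1 h, the latter without replicate 2, and by between 0.029 and 0.203 at 6 h.

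Small changes turned sign in members that had not passed. With GC and length removed, Chd2, Chd3 and Chd7 stood at 0.021, 0.009 and 0.021 at 1 h and Chd4 at -0.036 at 6 h against 1 h. With a library left out, the 1 h value ran from -0.072 to 0.012 for Chd2, from -0.087 to 0.121 for Chd3 and from -0.076 to 0.074 for Chd7, with all 3 upper values without 1 h replicate 3, and Chd3 was also at 0.037 without 0 h replicate 1. At 6 h against 0 h the values ran from -0.091 to 0.195 for Chd3, from -0.058 to 0.043 for Chd8 (also -0.019 without 0 h replicate 1) and from -0.122 to 0.113 for Chd9, with the lowest values without 6 h replicate 3. Against 1 h they ran from -0.068 to 0.213 for Chd3 (also -0.03 without 1 h replicate 3) and from -0.012 to 0.079 for Chd4. Depth limits Chd5 most, at 222 to 506 counts per library.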

Other observations

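The genes whose course over the 9 libraries was most like that of Chd2, after subtraction of the mean of each replicate number, were Afdn, Phkb and Aldh18a1 (Pearson r = 0.996 each, over 13606 genes with a mean of at least 1 CPM). Afdn, a scaffold of adherens junctions, rose by 0.54 on the log2 scale at 6 h against 0 h, Phkb, a subunit of phosphorylase kinase, by 0.34, and Aldh18a1, an enzyme of proline synthesis, by 0.23. For Chd1 they were Nfatc2ip (r = 0.997), Baz1a, a subunit of ISWI remodelers (r = 0.991), and Ppig, a nuclear cyclophilin (r = 0.991). Baz1a was at -0.27 and Ppig at -0.32 at 6 h (edgeR adjusted p = 0.00105 and 0.000172), and Nfatc2ip at -0.14 did not pass (adjusted p = 0.0731). The 9 values behind each correlation share 3 replicate numbers and 3 time points, and the genes were picked as the highest of all, so the coefficients are a description.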
